A study of Homo sapiens with 9 samples.

Results

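The genes described here are 10 target genes of the transcriptional co-activators YAP and TAZ, of the 58735 genes in the count table: CYR61, CTGF, ANKRD1, ANKRD2, AMOTL2, CRIM1, AXL, CCDC80, NUAK2 and FJX1. They were found by name, and the list was chosen by someone who knew their fold changes against WT in these libraries, so their values are a description and carry no p. Of the 10, 9 belong to a 22-gene signature of YAP and TAZ activity, and ANKRD2 does not. All 10 passed the filter on low counts, which 16350 genes passed.

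YAP and its relative TAZ carry the output of the Hippo pathway and of cell tension to the nucleus. They bind no DNA themselves and act through the TEAD transcription factors at the genes they switch on, and the Hippo kinases hold them in the cytoplasm by phosphorylation. Their best known targets encode secreted matricellular proteins, muscle-type ankyrin repeat proteins and feedback regulators, and their level is widely read as a measure of YAP and TAZ activity, in ovarian cancer cells among others.

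RNA was sequenced from SKOV3, a human ovarian cancer cell line, in 3 groups of 3 libraries. WT cells expressed wild-type CDK9, Ai cells expressed the same CDK9 and received an ALK inhibitor for 24 h, and Y19F cells expressed a CDK9 whose tyrosine 19 is replaced by phenylalanine, which cannot be phosphorylated there. CDK9 is the kinase of P-TEFb, which releases paused RNA polymerase II, and the comparisons ask how blocking ALK and removing this phosphorylation site each alter gene expression. The lines are engineered and carry introduced CDK9, how many clones each stands for is not given in the sources used here, and the name and dose of the inhibitor are not stated for these libraries.

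The libraries held 18169050 to 29320184 counts, and the Y19F libraries were the deepest, at 29320184, 27906210 and 26485891 counts. WT libraries held 19731228, 19231320 and 18939449 counts, and Ai libraries 20974903, 18169050 and 19207111. Levels are given as counts-per-million of the TMM-scaled library (CPM), and differences as log2 fold changes ± standard error from edgeR's quasi-likelihood fit of all 9 libraries. A gene is called where its p, adjusted over the 16350 tested genes by the Benjamini-Hochberg method, is under 0.05. No source used here says whether the 3 libraries of a group came from separate cultures, so each p measures only the spread between these samples, which may be technical. Ai replicate 2 stood apart from all other libraries on the second principal component, which held 17% of the variance (-51.6, against -14.5 to 21.9), with 19944 genes detected, the fewest of the 9 (20635 to 22744 in the others). Y19F replicate 3 lay beyond the other Y19F libraries on the first, which held 24.8% (48.3, against 27.2 and 27.9) and had 20635 genes detected. Without both, a fit chosen after seeing the data, the counts of called members stayed at 8 lower in Ai and 6 higher in Y19F than in Ai, and that of members lower in Y19F than in WT went from 5 to 4. The 6 were not the same genes, as CYR61 was lost and ANKRD2 gained, and over all tested genes that fit called 315 lower in Ai (447 with all libraries), 1046 higher in Y19F than in Ai (1565) and 1398 lower in Y19F (1695).

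The labels were checked against marker genes. ERBB2, amplified in SKOV3, stood at 1798 ± 50.5 CPM (SD, n = 3) in WT, 2622 ± 8.62 in Ai and 1469 ± 77.4 in Y19F. It was called higher in Ai (0.54 ± 0.03, adjusted p = 2.96e-13) and lower in Y19F (-0.29 ± 0.03, adjusted p = 5.40e-08). All 6 markers of the line were expressed, and the keratins did not move together. KRT8 stood at 1305 ± 62.6, 1304 ± 32.9 and 1693 ± 27.2 CPM in WT, Ai and Y19F, KRT18 at 135 ± 7.98, 149 ± 5.85 and 177 ± 6.94, and the mesenchymal filament gene VIM at 1145 ± 21.4, 1244 ± 8.66 and 1491 ± 31.0. KRT8, KRT18 and VIM were called higher in Y19F. In Ai only VIM was called (0.12 ± 0.03, adjusted p = 0.0179), a call lost without any single WT or Ai library except WT replicate 2. Without WT replicate 2, KRT18 was called higher in Ai as well (0.20). KRT19 fell in Y19F, from 245 ± 17.3 to 104 ± 6.82 CPM (-1.24 ± 0.06, adjusted p = 3.86e-17). In Ai it was called higher, at 284 ± 19.6 (0.21 ± 0.05, adjusted p = 0.0167), a call lost without WT replicate 1 (0.17) or Ai replicate 3 (0.16). KRT7 fell in Ai, from 1618 ± 63.3 to 1272 ± 50.03 CPM (-0.35 ± 0.03, adjusted p = 1.15e-08), and stood at 1521 ± 43.0 in Y19F. CDK9 stood at 48.5 ± 1.03 CPM in WT, 45.5 ± 1.76 in Ai and 54.9 ± 3.94 in Y19F. It was not called against WT in either group (log2 fold change -0.092 ± 0.08, adjusted p = 0.665, and 0.18 ± 0.08, adjusted p = 0.106). It was higher in Y19F than in Ai (0.27 ± 0.08, adjusted p = 0.00961), a call lost without Ai replicate 1 (0.24) or Y19F replicate 3 (0.215), and gene counts do not separate introduced from native CDK9 RNA. ALK had 0 to 5 counts in every library, where 3 counts correspond to 0.102 to 0.165 CPM, so its RNA was at or near the floor. Of 9 markers of leukocytes, endothelium, fibroblasts and hepatocytes, 1 passed the filter, the collagen gene COL1A1, which many cancer cells also express. PTPRC, CD3E, PECAM1 and DCN had 0 to 3 counts in every library. The summed level of the 9 markers was 104.2, 103.5 and 107.5 CPM in WT, 115.6, 149.5 and 136.4 in Ai and 46.07, 40.17 and 32.71 in Y19F, nearly all of it COL1A1, and its part in the results was not tested. As RNA of whole cultures was sequenced, fewer cells expressing a gene and less RNA per cell cannot be told apart.

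The promoters of 3 members are shown because they hold more than 1 copy of the motif that TEAD factors recognize. RefSeq's promoter table (GRCh38.p14, the same assembly as the hg38 build of the counts) holds entries for 8 of the 10 genes, 11 entries in all, each with 250 bases before and 50 after a start site. CYR61 and CRIM1 have no entry in it. The letters GGAATG, or CATTCC on the other strand, were found in an entry of 5 of the 8 genes: CTGF, ANKRD1, AMOTL2, AXL and NUAK2. Counted by entry, 5 of the 11 hold it. Of all 35116 promoters of this length, likewise counted by entry, 14.0% hold the motif, 1.37% hold 2 or more copies and 0.13% hold 3 or more. The lines that follow give the 250 bases before the start, 5′ to 3′ on the gene's strand, with the motif in capitals.
CTGF (chr6:131951373-131951622, minus strand): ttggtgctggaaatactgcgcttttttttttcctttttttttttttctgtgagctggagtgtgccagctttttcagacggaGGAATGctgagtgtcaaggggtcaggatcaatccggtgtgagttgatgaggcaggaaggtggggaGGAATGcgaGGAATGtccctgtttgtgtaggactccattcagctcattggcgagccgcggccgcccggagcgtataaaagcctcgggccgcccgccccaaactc
ANKRD1 (chr10:90921088-90921337, minus strand): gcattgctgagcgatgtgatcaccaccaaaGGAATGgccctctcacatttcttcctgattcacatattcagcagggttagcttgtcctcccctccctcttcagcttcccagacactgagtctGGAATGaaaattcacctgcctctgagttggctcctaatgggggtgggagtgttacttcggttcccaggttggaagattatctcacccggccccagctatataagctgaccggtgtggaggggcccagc
NUAK2 (chr1:205321746-205321995, minus strand): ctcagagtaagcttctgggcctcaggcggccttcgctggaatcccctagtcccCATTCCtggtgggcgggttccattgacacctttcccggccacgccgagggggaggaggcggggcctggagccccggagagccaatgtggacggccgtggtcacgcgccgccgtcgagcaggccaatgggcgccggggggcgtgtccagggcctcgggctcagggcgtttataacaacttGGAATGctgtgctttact

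CTGF holds 3 copies, whose first bases lie 169, 104 and 95 bases before the start, and the last pair is separated by 3 bases. ANKRD1 holds copies that begin 220 and 128 bases before the start, both on the gene's own strand. NUAK2 holds 1 copy on each strand, 197 and 18 bases before the start. AMOTL2 has 2 entries and a copy in 1 of them, 69 bases before the inner start, and AXL likewise has a copy 212 bases before an inner start 7552 bases into the gene. The counts table places the start of ANKRD1 189 bases, and that of NUAK2 46 bases, upstream of RefSeq's. For CCDC80 it lies 8387 bases upstream, so the window of CCDC80 is not at the start of the counted gene. No copy was found in the entries of ANKRD2, CCDC80 and FJX1, which says only that these letters are not in those windows. A match is a description of the sequence and shows no binding in these cells.

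**Figure D1:**
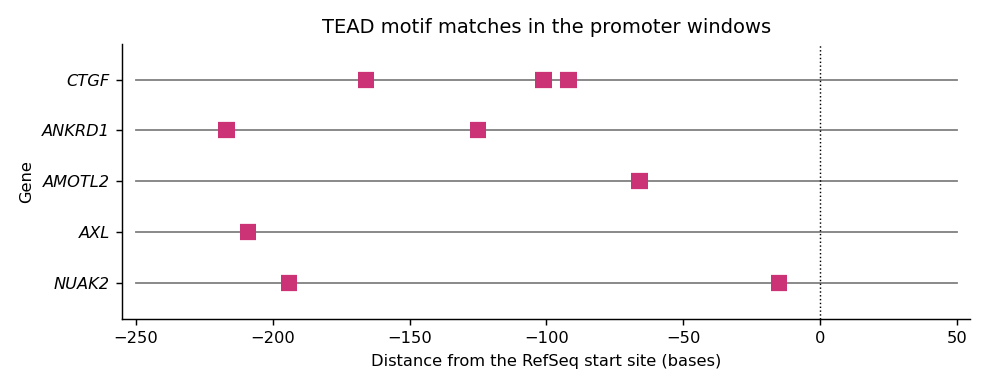
Positions of GGAATG or its complement (bars, drawn 6 bases long) in the RefSeq promoter windows of the 5 genes that hold it, as distance in bases from the start site (dotted line); windows run from 250 bases before to 50 after the start. All 9 matches lie before the start, from 220 to 18 bases upstream.

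Against WT, all 10 genes had a log2 fold change below 0 in Ai, from -2.25 to -0.27 with a median of -0.47, beside a median of -0.00103 over the 16350 tested genes. At an adjusted p under 0.05, 8 of the 10 were called lower in Ai and 0 higher, beside 2.73% (447) of all tested genes called lower and 1.82% (297) called higher. For 9 of the 10, all 3 Ai libraries lay below all 3 WT libraries, as they did for 10.3% of tested genes. In Y19F the genes went different ways: 5 were called lower and 1, ANKRD1, higher, beside 10.4% (1695) of tested genes called lower and 7.61% (1245) called higher. The median of the 10 was -0.14 in Y19F, beside 0.00346 over all tested genes, and the values ran from -0.91 to 0.67. All Y19F libraries lay below all WT libraries for 5 of the 10 and above them for 1, beside 17.2% and 15.4% of tested genes. Since the members were chosen on these contrasts, nothing is read from their counts. Both comparisons use the same 3 WT libraries. Without WT replicate 1, 7 members and 293 genes in all were called lower in Ai. Without WT replicate 2, 3 members and 1474 genes in all were called lower in Y19F. Scaled by library size alone, 344 genes were called lower and 406 higher in Ai, against 447 and 297 with TMM, and the members called lower in Ai were still 8. In Y19F the numbers were 1451 lower and 1544 higher with library size alone and 1483 and 1474 with upper-quartile scaling, against 1695 and 1245.

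**Figure D2:**
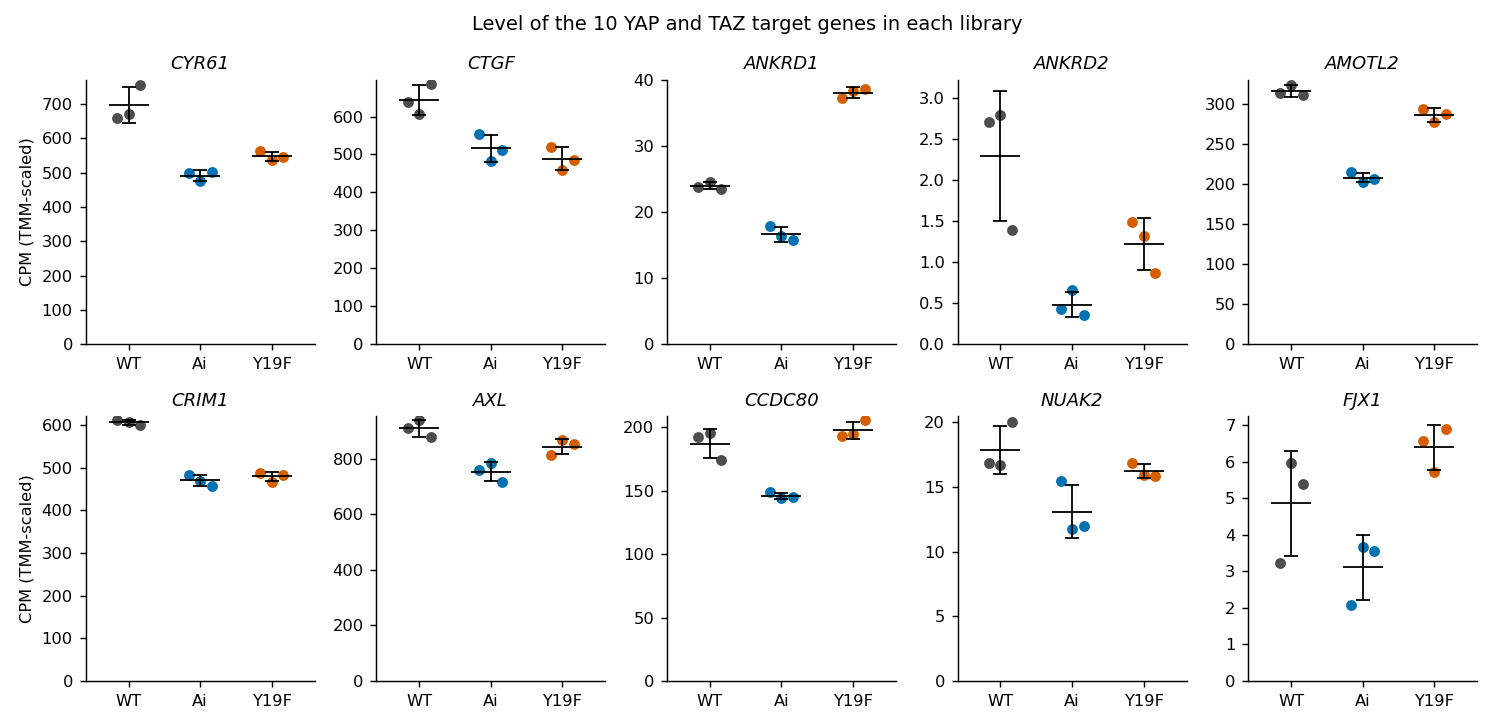
TMM-scaled CPM of each of the 10 genes (linear axes from 0) in the 3 libraries of each group (points), with the group mean and SD (bars). The Ai points lie below the WT points in every panel but that of FJX1, whereas the Y19F points of ANKRD1, between 37.3 and 38.8 CPM, lie above all others.

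CYR61 and CTGF are the best known YAP and TAZ targets. Both encode secreted CCN proteins that bind integrins and growth factors in the matrix, and both were lower in each group than in WT. CYR61 (ENSG00000142871, chromosome 1 from 85580761 to 85583962 on the plus strand) stood at 659.7, 671 and 756 CPM in the WT libraries, 499, 474 and 501 in Ai and 562, 536 and 545 in Y19F. The 3 groups did not overlap: WT was highest, Ai lowest and Y19F between them. Its log2 fold change was -0.50 ± 0.04 in Ai, 0.706 times the WT level, and -0.35 ± 0.04 in Y19F, 0.787 times. CTGF (ENSG00000118523, chromosome 6 from 131948176 to 131951373 on the minus strand), whose promoter with 3 copies of the motif is printed above, stood at 639, 607 and 686 CPM in WT, 554, 483 and 512 in Ai and 521, 460.4 and 486 in Y19F. Every WT library lay above every other library, while the Ai and Y19F ranges overlapped. The log2 fold change of CTGF was -0.32 ± 0.05 in Ai and -0.40 ± 0.05 in Y19F, or 0.802 and 0.760 times the WT level. Set directly against Ai, Y19F cells had 1.11 times the CYR61 level (log2 fold change 0.16 ± 0.04) and 0.947 times the CTGF level (-0.078 ± 0.05, 95% confidence interval -0.18 to 0.019). The CTGF difference was -0.13 without Y19F replicate 1 and -0.024 without Ai replicate 1. Without Ai replicate 2 the difference of CYR61 was 0.13 and no longer called, as when Y19F replicate 3 was left out with it (0.14).

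ANKRD1 and ANKRD2 encode ankyrin repeat proteins best known from striated muscle, where they bind titin and move to the nucleus under stretch. ANKRD1 was the 1 gene of the 10 called in opposite directions in the groups, lower in Ai and higher in Y19F. ANKRD1 (ENSG00000148677, chromosome 10 from 90912096 to 90921276 on the minus strand) stood at 23.8, 24.7 and 23.6 CPM in WT, 17.97, 16.4 and 15.7 in Ai and 37.3, 38.4 and 38.8 in Y19F. The 9 libraries lay in 3 separate ranges, with Ai below and Y19F above WT. Its log2 fold change was -0.52 ± 0.10 in Ai (0.696 times WT) and 0.67 ± 0.10 in Y19F (1.59 times WT), and Y19F stood 2.28 times as high as Ai (1.19 ± 0.10). Each of these directions held, with its call, in every fit run, including those that left out 1 library, where the Ai value ran from -0.58 to -0.48 and the Y19F value from 0.66 to 0.69.

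ANKRD2 (ENSG00000165887, chromosome 10 from 97572499 to 97583884 on the plus strand) had the fewest counts of the 10, 53, 53 and 26 counts in the WT libraries, 9, 12 and 7 in Ai and 44, 37 and 23 in Y19F. These were 2.72, 2.79 and 1.39 CPM in WT, 0.427, 0.658 and 0.361 in Ai and 1.49, 1.32 and 0.867 in Y19F. The Ai libraries were the lowest, and the Y19F libraries overlapped WT replicate 3. Its log2 fold change was -2.25 ± 0.53 in Ai, the largest of the 10 and the least precise, with a 95% confidence interval of -3.33 to -1.17. In Y19F it was -0.91 ± 0.48, with an interval of -1.88 to 0.068. Without WT replicate 1 the Ai value was -2.11 and not called, and DESeq2 gave it no adjusted p there (-2.26). With Ai replicate 2 and Y19F replicate 3 both left out, Y19F was called higher than Ai (1.82, against 1.34 ± 0.53 with all libraries).

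AMOTL2 encodes an angiomotin family scaffold that binds YAP and holds it outside the nucleus, so that it is both a target and a brake of the pathway. AMOTL2 (ENSG00000114019, chromosome 3 from 134355874 to 134375479 on the minus strand) stood at 313, 324 and 311 CPM in WT, 214, 203 and 206 in Ai and 294, 276 and 286 in Y19F. Its 3 groups did not overlap, with Ai well below WT and Y19F just below it. The log2 fold change was -0.60 ± 0.04 in Ai, 0.658 times WT, and -0.14 ± 0.04 in Y19F, 0.905 times WT. Y19F stood 1.37 times as high as Ai (0.46 ± 0.04). The Y19F call was lost without WT replicate 2 (-0.12) and without Y19F replicate 2 (-0.12).

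CRIM1, AXL and CCDC80 act at the cell surface or outside the cell. CRIM1, a transmembrane protein that binds bone morphogenetic proteins, was lower by nearly the same amount in both groups. CRIM1 (ENSG00000150938, chromosome 2 from 36355926 to 36551135 on the plus strand) stood at 612, 606 and 600.5 CPM in WT, 483, 469.8 and 457 in Ai and 488, 468 and 483 in Y19F. The WT libraries lay above all others, and the Ai and Y19F ranges overlapped. In log2 terms it differed from WT by -0.37 ± 0.04 in Ai and -0.34 ± 0.04 in Y19F, and the difference of Y19F from Ai was 0.029 ± 0.04 (95% confidence interval -0.046 to 0.10). The difference between Y19F and Ai was 0.0098 without Ai replicate 3 and 0.051 without Ai replicate 1. CRIM1 overlaps FEZ2 on the opposite strand, which took 20056 counts over the 9 libraries against 102695 for CRIM1, and whether the counting used strand is not given in the sources used here. FEZ2 was not called, with a log2 fold change of 0.13 in Ai (adjusted p = 0.315) and 0.12 in Y19F (adjusted p = 0.168).

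AXL encodes a receptor tyrosine kinase for GAS6. AXL (ENSG00000167601, chromosome 19 from 41219203 to 41261766 on the plus strand) stood at 912, 939.9 and 878 CPM in WT, 758, 785 and 716 in Ai and 813, 866 and 852 in Y19F. The ranges did not overlap, in the order WT, Y19F, Ai, although the highest Y19F library and the lowest WT library were close. Its log2 fold change was -0.27 ± 0.04 in Ai (0.827 times WT) and -0.11 ± 0.04 in Y19F (0.927 times WT). The Y19F call was lost without WT replicate 1 (-0.10), WT replicate 2 (-0.082), Y19F replicate 1 (-0.082) or Y19F replicate 3 (-0.11), and with upper-quartile scaling (-0.088), library size alone (-0.083), no filter (-0.11) or the stricter filter (-0.10).

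CCDC80, a secreted matrix protein, was lower in Ai and at about the WT level in Y19F. CCDC80 (ENSG00000091986, chromosome 3 from 112596794 to 112649530 on the minus strand) stood at 192, 195 and 174 CPM in WT, 149, 144 and 145 in Ai and 193, 194 and 205 in Y19F. All Ai libraries lay below the others, and the WT and Y19F ranges overlapped. Its log2 fold change was -0.36 ± 0.05 in Ai (0.780 times WT). In Y19F it was 0.078 ± 0.05 with a 95% confidence interval of -0.022 to 0.18 (0.031 without WT replicate 3), and Y19F stood 1.35 times as high as Ai (0.44 ± 0.05).

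NUAK2, a kinase related to AMPK, and FJX1, a relative of the Drosophila four-jointed protein, were the 2 genes not called in Ai. NUAK2 (ENSG00000163545, chromosome 1 from 205302059 to 205321791 on the minus strand) stood at 16.9, 16.7 and 20.0 CPM in WT, 15.5, 11.8 and 12.0 in Ai and 16.8, 16.0 and 15.9 in Y19F. Each Ai library lay below each WT library, and Ai replicate 1 was the highest of its group. The log2 fold change of NUAK2 was -0.44 ± 0.13 in Ai (95% confidence interval -0.72 to -0.17) and -0.14 ± 0.13 in Y19F (-0.41 to 0.13), where it was -0.046 without WT replicate 3. It was called lower in Ai with the filter of 10 counts in every library and with a replicate block (-0.44 and -0.45). Without Ai replicate 1 it was called lower in Ai (-0.58) and higher in Y19F than in Ai (0.45). FJX1 (ENSG00000179431, chromosome 11 from 35618419 to 35620868 on the plus strand) had 63, 113 and 101 counts in WT, 44, 67 and 69 in Ai and 194, 161 and 183 in Y19F, or 3.23, 5.96 and 5.39 CPM, 2.09, 3.68 and 3.56 CPM and 6.56, 5.72 and 6.90 CPM. WT replicate 1 lay within the Ai range and WT replicate 2 within the Y19F range. The log2 fold change of FJX1 was -0.65 ± 0.26 in Ai (-1.18 to -0.12) and 0.40 ± 0.25 in Y19F (-0.10 to 0.90), and Y19F stood 2.06 times as high as Ai (1.05 ± 0.25). Without Ai replicate 1 the Ai value of FJX1 was -0.42, and without WT replicate 1 its Y19F value was 0.18.

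**Figure D3:**
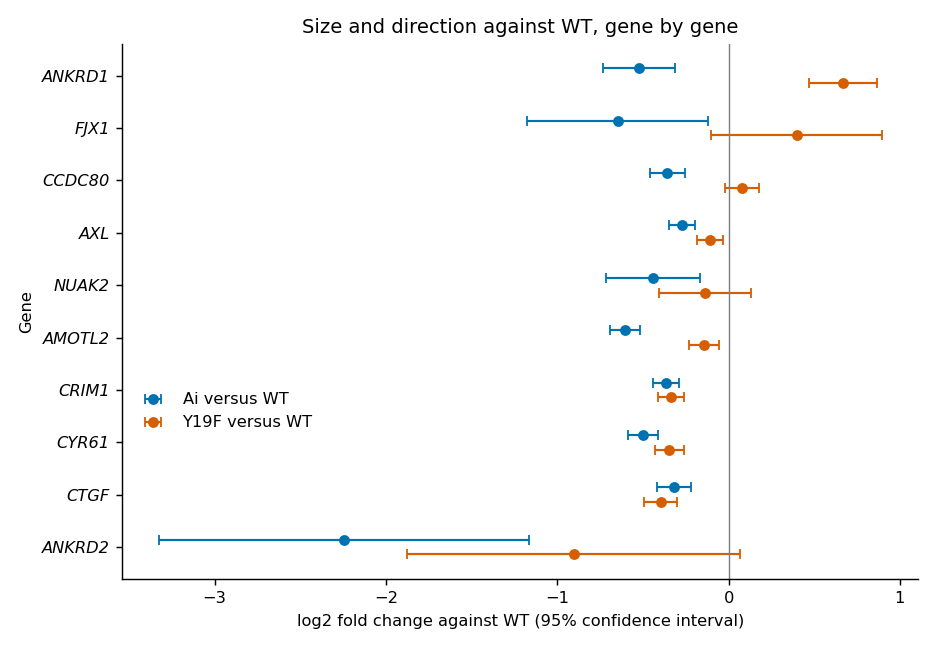
Log2 fold change against WT (x axis, with 95% confidence intervals) of the 10 genes in Ai and in Y19F, which share their WT libraries; genes are ordered by the Y19F value. All Ai points lie left of 0, and the Y19F points of CCDC80, FJX1 and ANKRD1 lie right of it.

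Set directly against Ai, Y19F cells had 6 of the 10 genes called higher (CYR61, ANKRD1, AMOTL2, AXL, CCDC80 and FJX1) and 0 called lower, beside 9.57% (1565) of tested genes called higher and 11.1% (1822) called lower. All Y19F libraries lay above all Ai libraries for 8 of the 10, beside 16.7% of tested genes. The median log2 fold change of the 10 was 0.37, beside 0.00176 over all tested genes, with the largest values for ANKRD2 (1.34 ± 0.53), ANKRD1 (1.19 ± 0.10) and FJX1 (1.05 ± 0.25). The remaining pair, CTGF and CRIM1, overlapped between Ai and Y19F. The same libraries give the comparisons with WT, so this one is a description as well. The summed level of the 10 genes was 3375, 3393 and 3455 CPM in WT, 2693, 2592 and 2568 in Ai and 2932, 2862 and 2920 in Y19F.

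Compared per length, as CPM per kilobase of the gene length listed with the counts, the 10 genes spanned a wide range of levels. In WT, CYR61 (283 ± 21.4, SD, n = 3) and CTGF (275 ± 17.0) were highest and their ranges overlapped. AXL (177 ± 6.02), CRIM1 (85.1 ± 0.828), AMOTL2 (52.7 ± 1.17), CCDC80 (14.3 ± 0.884), ANKRD1 (12.1 ± 0.285) and NUAK2 (5.19 ± 0.543) followed, each apart from the next by more than their SDs. FJX1 (1.98 ± 0.588) and ANKRD2 (1.58 ± 0.545) were lowest and did not differ beyond their spread. In Y19F the places of ANKRD1 (19.3 ± 0.388) and CCDC80 (15.1 ± 0.524) were exchanged, while in Ai CCDC80 (11.2 ± 0.185) stayed above ANKRD1 (8.44 ± 0.578). In Ai each CTGF library (221 ± 15.2 in the mean) lay above each CYR61 library (200.1 ± 6.01), whereas in Y19F the ranges of CYR61 (223 ± 5.41) and CTGF (209 ± 12.9) overlapped as they did in WT. The order depends on which length is used: over the genomic span, introns included, CRIM1 stood in WT at 3.106 CPM per kilobase, below AMOTL2 (16.1) and CCDC80 (3.549), while CYR61 (217.3) and CTGF (201.3) stayed highest.

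**Figure D4:**
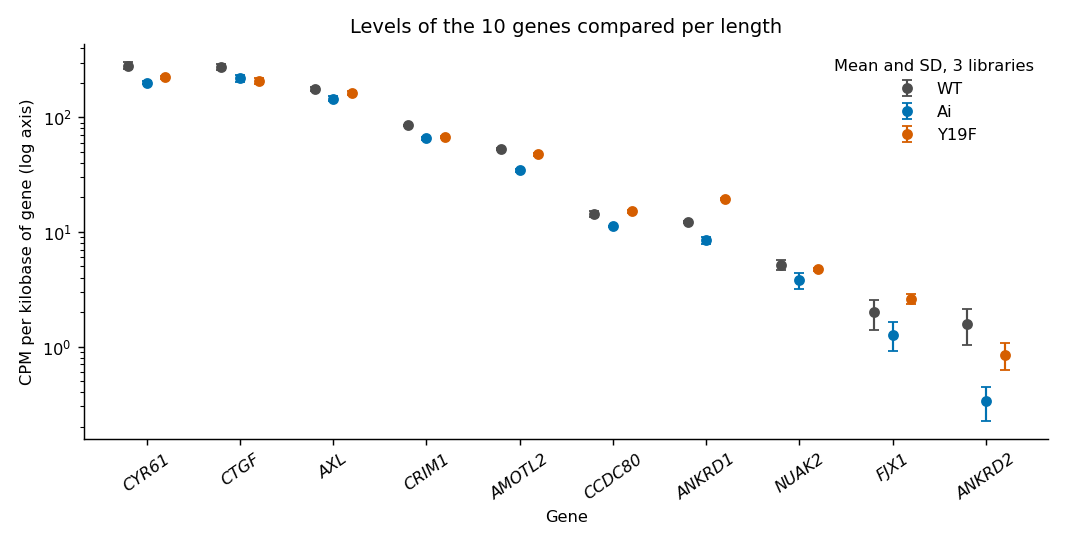
Level of each gene in CPM per kilobase (logarithmic axis) in WT, Ai and Y19F, as mean and SD of 3 libraries. CYR61 and CTGF stand highest in all 3 groups, and ANKRD1 passes CCDC80 in Y19F.

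The tested genes within 5 Mb of each member were compared with it. Their median log2 fold change lay between -0.057 (near AMOTL2) and 0.068 (near CRIM1) in Ai and between -0.099 (near CCDC80) and 0.086 (near ANKRD2) in Y19F. The 64 neighbours of ANKRD1 had a median of -0.028 in Y19F, where ANKRD1 itself stood at 0.67.

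Over the 9 libraries, the protein-coding genes most like CYR61 in log2 CPM centred on the WT mean were IGFBP3 (root mean square difference 0.0681), CD24 (0.0825) and ANKRD33B (0.0937), where the median over all such genes was 0.403. Nearest to CTGF were TTC9 (0.0652), DIAPH3 (0.0685) and ZFP28 (0.0748), beside a median of 0.357. Those nearest to ANKRD1 were ADAMTS15 (0.0906), EDN1 (0.0940) and MAMLD1 (0.0960), beside a median of 0.533. The log2 fold changes of EDN1 were -0.60 ± 0.06 in Ai and 0.59 ± 0.06 in Y19F, and those of ADAMTS15 -0.40 and 0.66.

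The other 13 genes of the signature, all of them tested, were called in both directions. This list and those that follow were chosen with earlier results of these data known. Their counts and adjusted p-values are therefore a description of these libraries as well. In Ai 3 fell, IGFBP3 and F3 among them, 1 rose (NT5E) and 9 were not called, with a median log2 fold change of -0.15. In Y19F 3 fell (IGFBP3, MYOF and PTPN14), 3 rose (NT5E, GADD45A and TGFB2) and 7 were not called, with a median of -0.09. Of all tested genes, 2.73% were called lower and 1.82% higher in Ai, and 10.4% and 7.61% in Y19F. IGFBP3, a secreted protein that binds insulin-like growth factors, fell from 2043 ± 11.3 CPM (SD, n = 3) in WT to 1451 ± 54.1 in Ai (-0.49 ± 0.03, edgeR adjusted p = 1.09e-12) and 1564 ± 53.3 in Y19F (-0.39 ± 0.03, adjusted p = 1.09e-10), below every WT library in all 6. NT5E, the surface enzyme that makes adenosine from AMP, rose from 101 ± 2.79 CPM to 143 ± 6.05 in Ai (0.50 ± 0.06, adjusted p = 1.02e-07) and 186 ± 12.6 in Y19F (0.88 ± 0.05, adjusted p = 8.08e-14). F3, the receptor that starts blood coagulation, fell in Ai (-0.22 ± 0.03, adjusted p = 6.08e-05), and its value in Y19F was 0.011 ± 0.03. MYOF, a membrane repair protein, fell in Y19F (-0.35 ± 0.04, adjusted p = 2.24e-07) and stood at -0.0092 ± 0.04 in Ai. GADD45A, a stress response gene, rose in Y19F (0.42 ± 0.06, adjusted p = 1.29e-06). Its value in Ai was -0.19 ± 0.06, with all 3 libraries below WT, and that was called with DESeq2 (adjusted p = 0.0456), with no filter (0.0299), the stricter filter (0.0396), a replicate block (0.0429) and the compared groups alone (0.0435), but not in the joint edgeR fit (adjusted p = 0.0555). TGFB2, a TGF-beta ligand, rose in Y19F (0.65 ± 0.13, adjusted p = 0.000520) and stood at -0.38 ± 0.14 in Ai, where it was called lower without Ai replicate 1 (-0.62, adjusted p = 0.00628). PTPN14, a phosphatase that binds YAP, fell in Y19F (-0.18 ± 0.05, adjusted p = 0.00611), a call lost without Y19F replicate 3 (-0.14, adjusted p = 0.0645).

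Directly between Y19F and Ai, 6 of these 13 genes were higher in Y19F and 2 lower, beside 9.57% and 11.1% of all tested genes. TGFB2 (1.03 ± 0.14, adjusted p = 6.15e-07), GADD45A (0.61 ± 0.06, adjusted p = 8.95e-10), NT5E (0.38 ± 0.05, adjusted p = 1.90e-06) and F3 (0.23 ± 0.03, adjusted p = 7.00e-06) were higher and MYOF (-0.35 ± 0.04, adjusted p = 2.95e-07) lower, whichever library was left out. The other calls were lost when single libraries were left out. That of IGFBP3 (0.11 ± 0.03) was lost without Ai replicate 1 (0.079) or Y19F replicate 1 (0.084). That of PTPN14 (-0.15 ± 0.05), lower in Y19F, was lost without Ai replicate 2 (-0.11) or Y19F replicate 3 (-0.12).

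A list of 9 further genes described as YAP and TAZ targets was likewise chosen with earlier results known. Among them 3 fell and 0 rose in Ai, and 2 fell and 3 rose in Y19F, with medians of -0.16 and -0.07. The shares over all tested genes were 2.73% called lower and 1.82% higher in Ai, and 10.4% and 7.61% in Y19F. Between Y19F and Ai they were 11.1% lower and 9.57% higher in Y19F. THBS1, which encodes the matrix protein thrombospondin 1, fell in both groups (-0.60 ± 0.03, adjusted p = 3.14e-15, and -0.70 ± 0.03, adjusted p = 1.24e-17), while its 104 neighbours within 5 Mb had medians of -0.037 and -0.12. EDN1, the precursor of the vasoconstrictor endothelin 1, went in opposite directions, from 149.7 ± 10.4 CPM in WT to 98.4 ± 6.95 in Ai (adjusted p = 3.76e-09) and 225 ± 9.42 in Y19F (adjusted p = 1.27e-09). AJUBA, a LIM protein that restrains the LATS kinases, fell in Ai (-0.26 ± 0.04, adjusted p = 9.20e-05). In Y19F the cell cycle gene CCND1 (0.32 ± 0.04, adjusted p = 1.32e-07) and the TEAD cofactor VGLL3 (0.50 ± 0.08, adjusted p = 1.32e-05) rose. Between Y19F and Ai, 4 of the 9 were higher in Y19F, led by EDN1 (1.19 ± 0.06, adjusted p = 9.37e-17), and 2 lower, THBS1 among them. The THBS1 difference (-0.10 ± 0.03, adjusted p = 0.0126) was not called without Ai replicate 1 (-0.069), Ai replicate 2 (-0.091), Y19F replicate 2 (-0.090) or Y19F replicate 3 (-0.095).

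The pathway that controls YAP and TAZ runs from upstream scaffolds through the MST and LATS kinases to the TEAD factors. Of 20 Hippo pathway genes tested, 2 fell and 1 rose in Ai and 4 fell and 3 rose in Y19F, with medians of -0.029 and -0.041. Over all tested genes, 2.73% were called lower and 1.82% higher in Ai, and 10.4% and 7.61% in Y19F. Between Y19F and Ai, 11.1% were lower and 9.57% higher in Y19F. YAP1 and WWTR1, the genes of YAP and TAZ, were singled out after their values were seen. YAP1 stood at 209.7 ± 2.91 CPM in WT, 214 ± 5.09 in Ai and 203 ± 8.72 in Y19F, with log2 fold changes of 0.030 ± 0.05 (95% confidence interval -0.062 to 0.12) and -0.049 ± 0.05 (-0.14 to 0.042). WWTR1 stood at 370.3 ± 7.22, 391 ± 9.44 and 396 ± 9.76 CPM, with log2 fold changes of 0.078 ± 0.04 and 0.10 ± 0.04, and its Y19F value was called higher with upper-quartile scaling (adjusted p = 0.0285), library size alone (0.0219) and DESeq2 (0.0245) but not in the TMM-scaled edgeR fit (adjusted p = 0.0784). TEAD1, a DNA-binding partner of YAP, fell in both groups, by 0.32 in Ai (standard error 0.04, adjusted p = 4.10e-07) and by 0.17 in Y19F (standard error 0.04, adjusted p = 0.00141). WWC1, the upstream activator KIBRA, fell in Ai (-0.32 ± 0.05, adjusted p = 8.26e-05), and the kinase gene MAP4K4 rose there (0.17 ± 0.04, adjusted p = 0.00898), a call lost without WT replicate 1 (0.16, adjusted p = 0.0578) or Ai replicate 2 (0.16, adjusted p = 0.0542). In Y19F the kinase gene TAOK1 (-0.28 ± 0.05, adjusted p = 6.17e-05) and the LATS co-activator MOB1B (-0.39 ± 0.07, adjusted p = 0.000217) fell. The neighbours of MOB1B within 5 Mb had a median of -0.23 in Y19F. MOB1B also overlaps DCK on the same strand, which took 13336 counts over the 9 libraries against 9682 for MOB1B. FRMD6, an upstream FERM protein, rose in Y19F (0.18 ± 0.05, adjusted p = 0.00496). The rise of the tumour suppressor NF2 (0.15 ± 0.05, adjusted p = 0.0234, beside a neighbour median of 0.17) was lost without WT replicate 1 (0.15), WT replicate 3 (0.10) or Y19F replicate 2 (0.11). That of VGLL4, which competes with YAP for TEADs (0.32 ± 0.11, adjusted p = 0.0432), was lost with no filter (0.32) and without WT replicate 1 (0.30), WT replicate 2 (0.30), WT replicate 3 (0.36), Y19F replicate 1 (0.35) or Y19F replicate 2 (0.22). VGLL4, with 4558 counts over the 9 libraries, overlaps ATG7 on the opposite strand, which took 5762 counts and was not called (0.076 in Y19F, adjusted p = 0.665). Between Y19F and Ai, 3 of the 20 were called higher and 3 lower in Y19F, with WWC1 (0.34 ± 0.05, adjusted p = 7.17e-06) and MOB1B (-0.47 ± 0.07, adjusted p = 1.30e-05) at either end.

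Relatives of the members from the same gene families were followed as well. Of 8 listed, 6 passed the filter, while WISP1 was at 0 in all 9 libraries and WISP3 had 0 to 5 counts. NUAK1, the relative of NUAK2, fell in Ai, from 148 ± 7.72 to 113 ± 3.05 CPM (-0.39 ± 0.05, adjusted p = 3.75e-06), and stood at 149 ± 3.25 in Y19F (0.010 ± 0.05). TYRO3, a receptor of the AXL family, fell in Y19F (-0.33 ± 0.07, adjusted p = 0.000474) and stood at -0.020 ± 0.07 in Ai. NOV, a CCN protein like CYR61 and CTGF, rose in Ai (0.51 ± 0.14, adjusted p = 0.0257) and stood at 0.10 ± 0.14 in Y19F. That rise was lost without WT replicate 2 (0.48), WT replicate 3 (0.47), Ai replicate 1 (0.48) or Ai replicate 2 (0.49). Set against Ai, Y19F had more NUAK1 RNA (0.40 ± 0.05, adjusted p = 5.40e-07) and less TYRO3 RNA (-0.31 ± 0.07, adjusted p = 0.000842). NOV was lower in Y19F than in Ai as well (-0.41 ± 0.14, adjusted p = 0.0289), a call lost without Ai replicate 1 (-0.37), Ai replicate 2 (-0.39), Y19F replicate 2 (-0.35) or Y19F replicate 3 (-0.34). MERTK, WISP2 and ANKRD23 had at most 72 counts per library and were called in neither group. Their log2 fold changes were -0.53 ± 0.39, 0.30 ± 0.80 and 2.07 ± 0.77 in Ai and -0.47 ± 0.38, -1.41 ± 0.85 and 1.75 ± 0.77 in Y19F. ANKRD23, with 115 counts over the 9 libraries, overlaps CNNM3 on the opposite strand (7952 counts) and ANKRD39 on the same strand (1309).

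**Figure D5:**
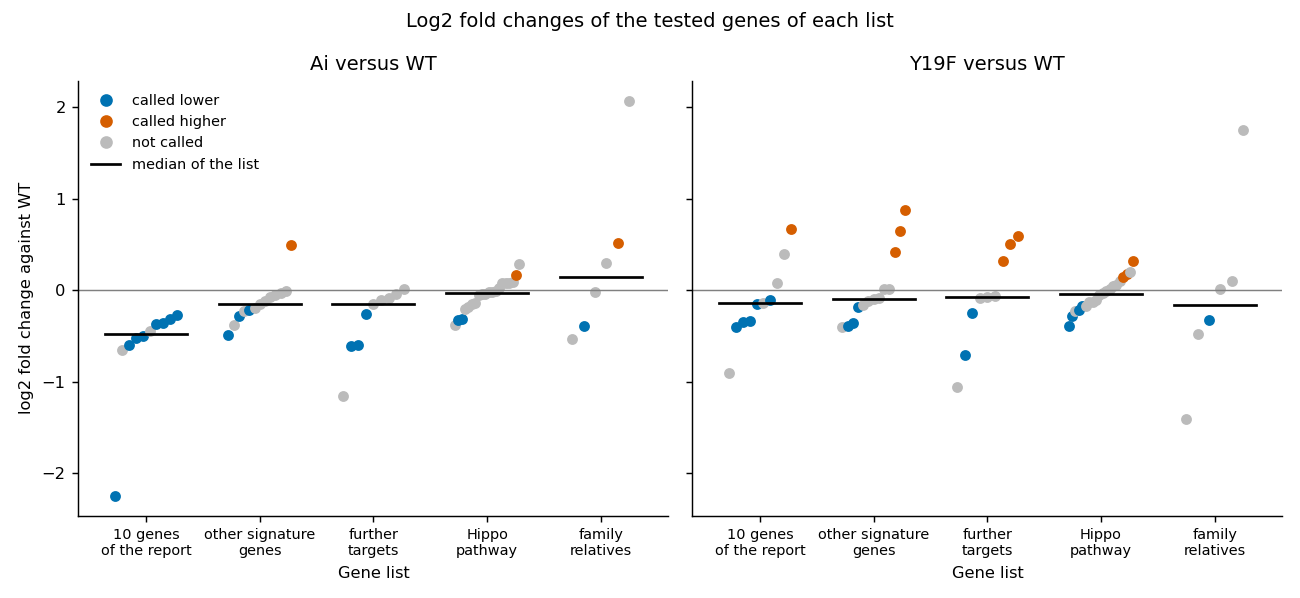
Log2 fold change against WT of every tested gene of 5 lists in Ai (left) and Y19F (right), which share their WT libraries; colours mark genes called lower or higher at an adjusted p under 0.05, and bars the median of each list. The medians in Ai run from -0.47 for the 10 genes to 0.14 for their family relatives, and those in Y19F from -0.16 to -0.041.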

How the data were processed

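The authors deposited a table of raw counts per gene for reads aligned to hg38 (GRCh38). The submitters' processing notes name CASAVA, HISAT2 2.0.5 and featureCounts 1.5.0-p3, and the annotation release and strand setting are not given in the sources used here.

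Genes were filtered with edgeR's filterByExpr (10 counts, 15 in all), scaled by TMM and fitted in 1 model of 3 groups with glmQLFit and glmQLFTest. Adjusted p-values are Benjamini-Hochberg over the 16350 genes tested. CPM are counts-per-million of the TMM-scaled library size. With 3 against 3 libraries an exact permutation test cannot give a two-sided p below 0.1, so none was used. Genes of a list are named where called (up to 3 in each direction for the longer lists), and signature genes and relatives side by side, except for genes whose results are not reported here. Members and lists were chosen with earlier results of these data known. Alternatives were RLE, upper-quartile and library-size scaling, no filter, 10 counts in every library, a replicate block, DESeq2, the compared groups alone, an adjusted p under 0.01 and each library left out. Leaving out Ai replicate 2 and Y19F replicate 3 together was added after seeing the data. The scripts were tested on simulated counts. Versions were R 4.3.3, edgeR 4.0.16, limma 3.58.1, DESeq2 1.42.0, Python 3.11.15, numpy 2.4.6, pandas 2.3.3 and matplotlib 3.10.9.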

Additional observations from a re-analysis of the deposited data

How the results depend on the processing

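No member's direction changed in any of 266 values under other settings (258 the same call, 6 lost, 2 gained) or 180 with 1 library left out (170, 8 and 2). ANKRD2 had no call in 4 more: the filter of 10 counts in every library removed it from all 3 comparisons, and DESeq2 gave it no adjusted p in Ai, leaving 7 members lower there. For 83 results on other genes, picked by the naming rule, 716 of 739 and 440 of 498 values kept their call. Those that turned under other settings were near 0 and in Ai. They were MYOF with upper-quartile scaling (0.001036) and library size alone (0.01644), and TYRO3 with library size alone (0.005671). With Ai replicate 2 and Y19F replicate 3 left out, TYRO3 in Ai (0.02485) and F3 in Y19F (-0.001316) turned. With 1 library left out 12 values turned. Not all of these were near 0 with all libraries, as WISP2 in Ai was 0.30 ± 0.80. With each library left out in turn, the log2 fold change in Ai ran from -0.02073 to 0.005126 for MYOF, -0.06639 to 0.0104 for PTPN14 (-0.06663 without both), -0.07297 to 0.6496 for WISP2 and -0.0494 to 0.02507 for TYRO3, and in Y19F from -0.001088 to 0.03123 for F3, -0.03993 to 0.1861 for NOV and -0.01058 to 0.05718 for NUAK1. At an adjusted p under 0.01, 3 members were lower in Y19F and 1 other signature gene lower in Y19F than in Ai. At that threshold 260 genes were lower and 167 higher in Ai, 1135 lower and 715 higher in Y19F, and 1153 lower and 935 higher in Y19F than in Ai. At 0.05 the counts of members and of other signature genes were 5 and 2. With 1 library left out, still at 0.05, they ran from 3 to 5 and from 1 to 2 (the latter 1 without both). With the 250 bases before the start alone, 11.9% of promoters held the motif. Deviations of log2 CPM from the group means showed little correlation between libraries of the same replicate number (r -0.0116 to 0.026). This was taken over all tested genes alike, low ones included, and cannot exclude pairing. With a replicate block, 494 genes were lower and 324 higher in Ai, 1758 and 1318 in Y19F and 1861 and 1604 between them, and 9 members lower in Ai, 5 lower and 1 higher in Y19F and 6 higher in Y19F than in Ai. The cause of these shifts was not tested.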

Other observations

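SRF, with its actin-regulated cofactors, drives cytoskeletal and contractile genes, some of which YAP shares as targets. Of 12 genes of the SRF and actin program, all tested, 2 fell and 0 rose in Ai, and 2 fell and 4 rose in Y19F, with median log2 fold changes of -0.048 and 0.049. Among all tested genes, 2.73% were called lower and 1.82% higher in Ai, and 10.4% and 7.61% in Y19F. Between Y19F and Ai, 11.1% were lower and 9.57% higher in Y19F. TAGLN, which encodes the actin-binding protein transgelin, stood at 426 ± 14.9 CPM (SD, n = 3) in WT, 379 ± 12.7 in Ai and 569 ± 19.2 in Y19F. It rose in Y19F (0.42 ± 0.04, adjusted p = 1.89e-09), and its fall in Ai (-0.17 ± 0.04, adjusted p = 0.00786) was lost without WT replicate 2 (-0.14) or Ai replicate 1 (-0.14). The tropomyosin gene TPM1 likewise rose in Y19F (0.13 ± 0.03, adjusted p = 0.005004), and its fall in Ai (-0.14 ± 0.03, adjusted p = 0.00898) was lost without WT replicate 3 (-0.13) or Ai replicate 1 (-0.14). VCL, the focal adhesion protein vinculin, rose in Y19F (0.22 ± 0.03, adjusted p = 6.61e-06) from 1252 ± 24.7 to 1454 ± 42.4 CPM, while its neighbours within 5 Mb had a median of 0.17. FLNA, an actin cross-linker, fell in Y19F (-0.15 ± 0.03, adjusted p = 6.34e-05). FHL2 fell there as well (-0.14 ± 0.04, adjusted p = 0.0202), a call lost with library size alone (-0.12) and without WT replicate 1 (-0.15), WT replicate 2 (-0.12), Y19F replicate 2 (-0.12) or Y19F replicate 3 (-0.13). Directly between the groups, 5 of the 12 were higher in Y19F than in Ai, led by TAGLN (0.59 ± 0.04, adjusted p = 6.51e-13), and 2 lower. The 5 became 3 without Ai replicate 1 or Y19F replicate 1, and the 2 became 1 without Ai replicate 2 or Y19F replicate 3. SRF itself stood at 97.7 ± 9.95, 93.6 ± 6.36 and 102 ± 2.30 CPM and was not called.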
